A study of Mus musculus with 12 samples.

Results

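Immediate early factors and Myc were measured as 10 genes: the EGR zinc finger factors Egr1, Egr2 and Egr3, the AP-1 subunits Fos, Fosb, Jun, Junb and Jund, the orphan nuclear receptor Nr4a1 and the growth regulator Myc. They were taken by symbol from the gene column of the deposited tables, and all 10 of 10 were found among 43613 named items. All 10 passed the filter on low values, at least 1 FPKM (fragments per kilobase of transcript, scaled to the mapped fragments of the library, so a level per length) in at least 3 of 12 libraries, which 14607 items passed in all. RNA came from splenic B cells of female mice aged 6 months on a C57BL/6 background, and every mouse carried Sle1b, a lupus susceptibility interval. The 4 groups of 3 libraries were germinal centre (GC) and non-GC B cells of the genotype labelled B6.Sle1b.IFNaR1-/-, called Ifnar1KO here, and GC and non-GC B cells of the genotype B6.Sle1b, called Sle1b. The protein of Ifnar1 is a subunit of the receptor through which cells sense type I interferons. GC cells were sorted as viable B220-positive, GL7-positive and CD95-positive cells, and non-GC cells as viable B220-positive cells negative for GL7 and CD95. The labels speak of splenocyte pools and do not say how many animals a library stands for, so p-values reflect differences among the libraries, whose source may be technical. The design asks how loss of the interferon receptor bears on B cell selection in autoimmune-prone GCs.

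Immediate early genes are transcribed within minutes of a signal, before any new protein is made, because the factors that drive them already sit in the cell. In B cells the antigen receptor and CD40 act through ERK kinases on ternary complex factors and serum response factor, which binds the CArG box, and through CREB-type proteins. The EGR proteins and the FOS and JUN dimers called AP-1 then act on later genes, Nr4a1 is widely used as a reporter of antigen receptor signalling, and Myc marks the GC B cells chosen in the light zone for another round of division.

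Promoter sequences were taken from RefSeq (GRCm38.p6), as windows of 250 bases before to 50 bases after a transcript start. Windows of Egr2 (5 starts), Fos, Fosb, Jun, Junb, Jund and Nr4a1 were searched. Egr1, Egr3 and Myc were not searched, so the counts out of 7 genes say nothing about them. Both strands were searched for the CArG box, the cyclic AMP response element TGACGTCA, the AP-1 site TGANTCA, the EGR site GCGNGGGCG and the E-box CACGTG bound by Myc and its partners. A CArG box was found for 1 of 7 genes, Egr2, against 1.63% of 32851 windows. All percentages here count single windows, while a gene was counted with a match in any of its windows. Egr2 had 5 windows and each other gene 1, so the shares are not of the same unit. An EGR site was found for 2 of 7 genes, Fosb and Nr4a1, against 5.55% of windows, and an E-box for Egr2 alone, against 7.15%. The element TGACGTCA (1.79% of windows) and the AP-1 site (7.81%) had no match in these 7 genes. Sites more than 250 bases before a start were not searched, so a window without a match does not show that a gene lacks the site. The start used for Jund, 70697739, lies before the annotated gene, which begins at 70698949, so bases next to that gene start were not searched. The deposited locus of Egr2 holds all 5 starts, so its levels do not tell which start was used. The 250 bases before the start are shown for Egr2, the gene with the largest difference below. They are given at start 1, the nearest to the first base of that locus (chr10:67535249-67535498, plus strand), and at the start listed as number 3 (chr10:67537619-67537868, plus strand). Those of Fosb (chr7:19310046-19310295, minus strand) and Nr4a1 (chr15:101266596-101266845, plus strand) follow. Capitals mark the E-box in the first, the CArG box in the second and the EGR site, read on either strand, in the last pair, and no overlap between matches occurred.
Egr2, start 1: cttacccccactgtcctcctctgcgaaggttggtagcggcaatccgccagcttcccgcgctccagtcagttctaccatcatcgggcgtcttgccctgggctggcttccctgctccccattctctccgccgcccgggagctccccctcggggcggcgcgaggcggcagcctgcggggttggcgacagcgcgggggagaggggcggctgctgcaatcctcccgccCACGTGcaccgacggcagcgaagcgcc
Egr2, start 3: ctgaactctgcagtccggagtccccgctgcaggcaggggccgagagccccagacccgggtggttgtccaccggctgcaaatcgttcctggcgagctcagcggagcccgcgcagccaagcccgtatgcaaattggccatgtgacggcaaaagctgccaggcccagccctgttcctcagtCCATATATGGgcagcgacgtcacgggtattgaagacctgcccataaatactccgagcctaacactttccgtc
Fosb: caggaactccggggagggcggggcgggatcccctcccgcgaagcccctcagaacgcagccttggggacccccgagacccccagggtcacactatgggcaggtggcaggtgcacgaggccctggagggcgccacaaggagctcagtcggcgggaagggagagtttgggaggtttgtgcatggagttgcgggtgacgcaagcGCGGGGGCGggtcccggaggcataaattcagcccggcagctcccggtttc
Nr4a1: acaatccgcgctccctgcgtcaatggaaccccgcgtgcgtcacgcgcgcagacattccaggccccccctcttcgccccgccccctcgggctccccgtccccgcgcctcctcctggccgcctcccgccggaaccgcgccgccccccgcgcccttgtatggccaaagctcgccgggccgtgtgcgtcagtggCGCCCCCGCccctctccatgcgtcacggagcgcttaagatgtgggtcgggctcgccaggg

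The 4 libraries of batch 3 stood apart and partly against their labels. GC markers summed to 18.7 FPKM in the Ifnar1KO GC library of batch 3 against 20.7 FPKM in its non-GC library, and to 20.8 against 19.2 FPKM in the Sle1b pair. In batches 1 and 2 the same 8 markers summed to 299 to 972 FPKM in GC libraries against 52.5 to 89.7 FPKM in non-GC libraries. Gene by gene, 2 GC markers were higher and 3 lower in the Ifnar1KO pair of batch 3, and 3 higher and 4 lower in the Sle1b pair. The 6 resting B cell markers did differ in batch 3. Their sums were 20.9 (GC) against 117 FPKM (non-GC) in the Ifnar1KO pair, and 17.0 against 137 FPKM in the Sle1b pair. The 7 B cell markers summed to 23.1 to 257 FPKM in batch 3 and to 1144 to 2190 FPKM in batches 1 and 2. Loci without a gene name took an estimated 30.8% to 83.1% of reads in batch 3, against 6.55% to 22.5% in the other libraries, and from 2 to 6 of the 10 genes were listed at 0 in each batch 3 library, against 0 to 2. The levels of the 10 genes are therefore given by batch, and their differences between GC and non-GC cells also for batches 1 and 2 alone. Reads on named genes were estimated at 2078000 to 6494000 per library in batches 1 and 2 and at 861000 to 7141000 in batch 3. Ifnar1 itself did not check the genotype labels: it had 14.1, 15.4 and 0 FPKM in GC and 51.1, 69.1 and 2.58 FPKM in non-GC libraries labelled Ifnar1KO, against 8.11, 9.89 and 6.80 FPKM in Sle1b GC and 14.5, 36.1 and 3.45 FPKM in Sle1b non-GC libraries of batches 1, 2 and 3. It was higher in the libraries labelled Ifnar1KO in batches 1 and 2, and the kind of knockout allele, which can leave a transcript, is not given in the sources used here. In bulk RNA, fewer cells of a type and less RNA per cell cannot be told apart.

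**Figure D1:**
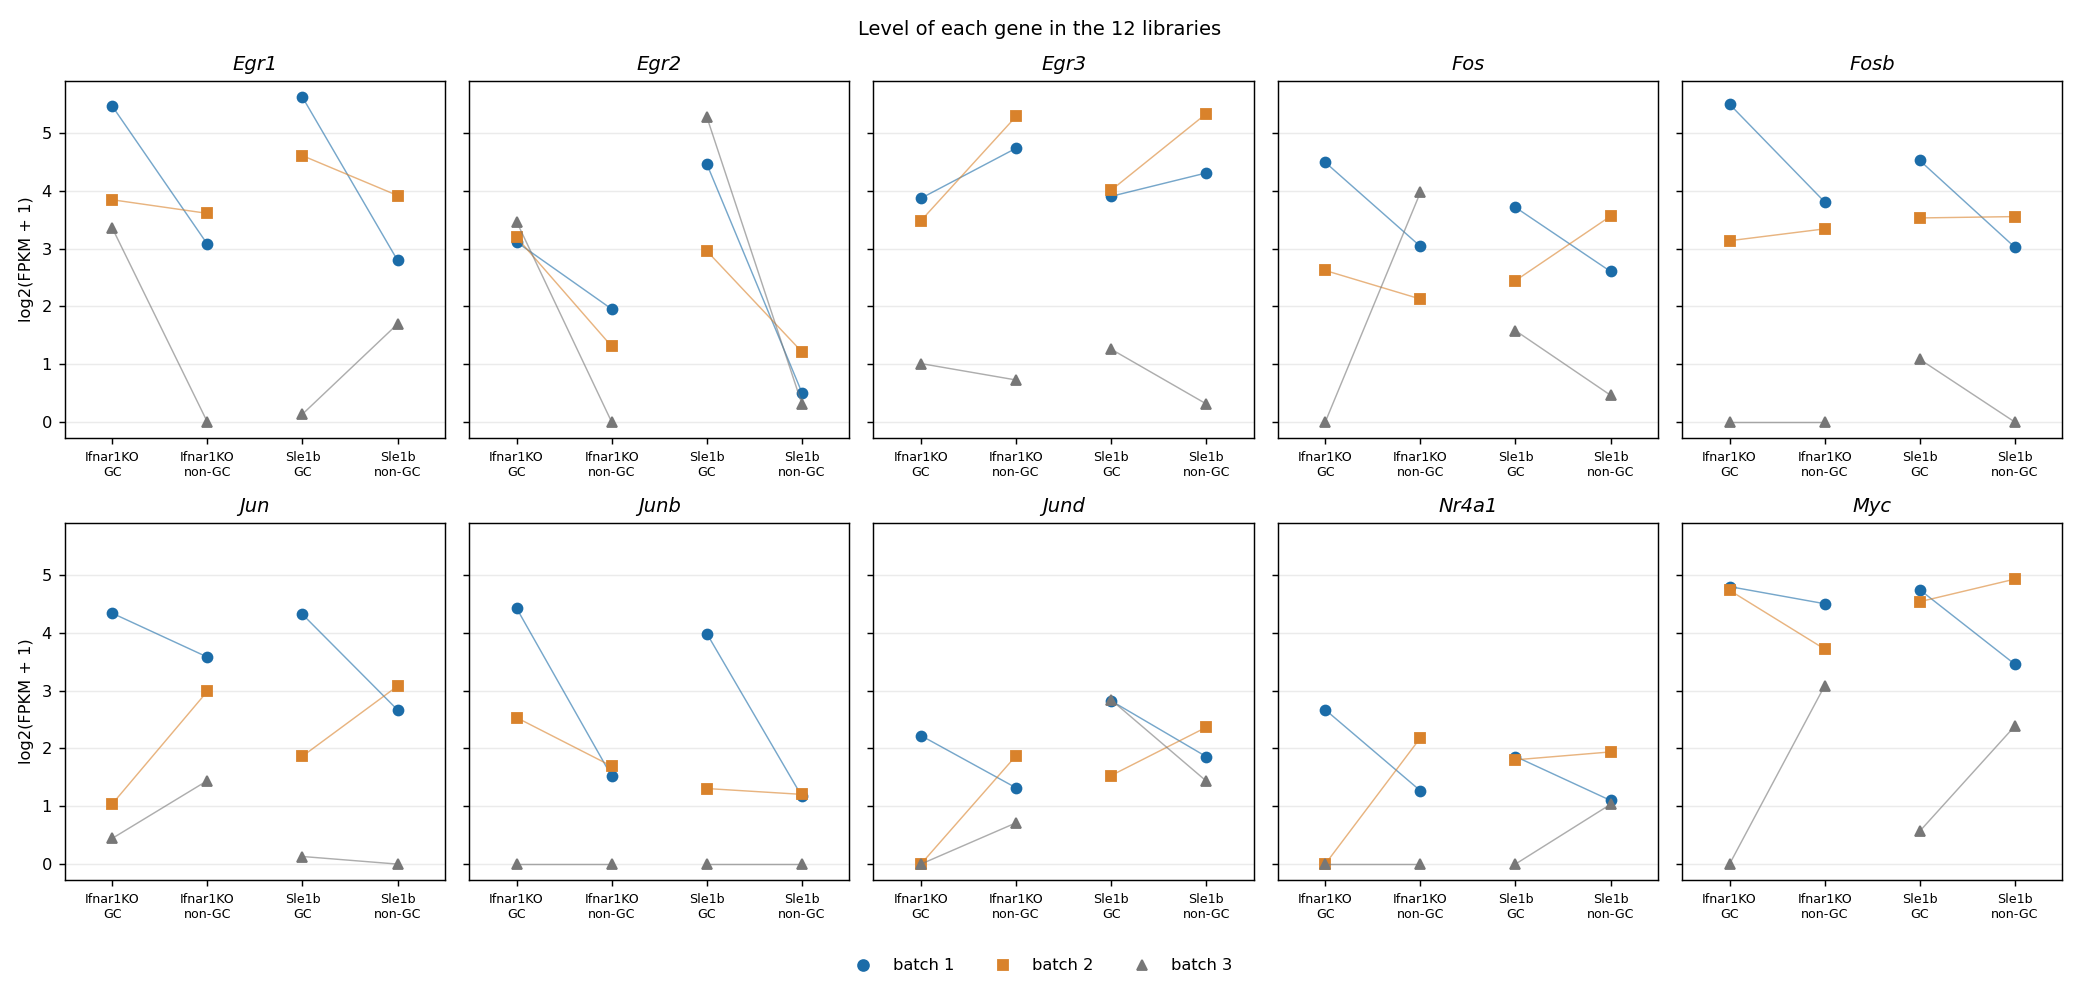
Level of the 10 genes as log2(FPKM + 1) in each of the 12 libraries, GC left of non-GC in libraries labelled Ifnar1KO and in Sle1b libraries, with lines joining the GC and non-GC library of the same genotype and batch. Egr2 is the gene whose 6 lines all fall from GC to non-GC, while batch 3 (grey triangles) holds most of the values at 0.

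GC and non-GC cells were compared first. In GC cells the EGR genes split: Egr2 exceeded its non-GC level in all 6 pairs of libraries of the same genotype and batch, Egr1 in 5 of 6, and Egr3 was lower in the 4 pairs of batches 1 and 2. Junb was higher in those 4 pairs and listed at 0 throughout batch 3. The other 6 genes went different ways in different batches. With limma on log2(FPKM + 1), with batch as a block and Benjamini-Hochberg adjustment over 14607 genes, 0 of the 10 genes passed an adjusted p of 0.05, where 0.0274% of all genes did (4 genes). At an unadjusted p under 0.05, 3 of 10 were higher (Egr1, Egr2 and Junb) and 0 lower, beside 4.48% higher and 13.0% lower over all genes. That count of 3 fell to 1, Egr2, without any single library of batch 1 or without the whole batch, where Egr1 was at 0.68 and Junb at 0.24, and also without the batch block or with a pseudocount of 0.1 FPKM. The median of all genes was -0.25 on the log2 scale in this comparison and 0.05 after the libraries were set to an equal median, so that small negative values lie near that shift.

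Egr2 encodes a zinc finger factor that antigen receptor signals induce and that restrains lymphocyte activation together with Egr3. It lies on chromosome 10 (67535475 to 67542188, plus strand, GRCm38, as are all positions here). Positions from here on are those of the deposited loci, except for Jun, and can differ from the bounds of the annotated gene. Egr2 measured 7.66, 8.16 and 10.1 FPKM in GC libraries labelled Ifnar1KO of batches 1, 2 and 3, against 2.88, 1.48 and 0 FPKM in the non-GC libraries. It measured 21.0, 6.78 and 37.8 FPKM in Sle1b GC libraries, against 0.424, 1.32 and 0.242 FPKM in Sle1b non-GC libraries. Every GC value lay above every non-GC value, and the lowest GC value, 6.78 FPKM, rested on about 91 reads while the highest non-GC value, 2.88 FPKM, rested on about 66. All 6 differences above 0 were found in 1.02% of tested genes (149 genes). The averaged difference was 2.86 on the log2 scale (SE 0.50, 95% interval 1.78 to 3.94, limma adjusted p = 0.0620), the rank of Egr2 by the size of the moderated statistic was 15 of 14607, and the value missed the threshold. Set to an equal median the difference was 3.16 (adjusted p = 0.0423), and it passed with 21 of all 14607 genes. With library weights estimated from the fit it was 2.53 (adjusted p = 0.0284), and it passed with 404 of all genes. In batches 1 and 2 alone it was 2.19 (SE 0.51, 95% interval 1.02 to 3.36, adjusted p = 0.0633), where 2.86% of 13764 genes passed (393 genes). Batch 3 thus carried 2 of the 3 largest single differences, in libraries whose summed GC markers did not separate the sorted cells. Resting B cell markers were lower in the GC libraries there, with medians of -2.32 in the Ifnar1KO pair and -1.92 in the Sle1b pair. B cell markers there had median differences of -2.28 in the Ifnar1KO pair and -3.36 in the Sle1b pair. The part of these in the result was not tested.

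By genotype, the GC difference of Egr2 was 2.17 (SE 0.71, adjusted p = 0.328) in libraries labelled Ifnar1KO and 3.55 (SE 0.71, adjusted p = 0.309) in Sle1b libraries, and neither passed. In batches 1 and 2 alone these differences were 1.52 (SE 0.72, adjusted p = 0.311) and 2.85 (SE 0.72, adjusted p = 0.198). Within a genotype, 0 of the 10 genes passed, as did 0.00685% of all genes in libraries labelled Ifnar1KO and 0.00% in Sle1b libraries. The difference between them for Egr2, the interaction, was -1.38 (SE 1.00, 95% interval -3.54 to 0.78, adjusted p = 0.992), and it ranged from -2.14 without the Sle1b GC library of batch 2 to -0.65 without that of batch 3. GC levels were spread over 7.66 to 10.1 FPKM in libraries labelled Ifnar1KO and over 6.78 to 37.8 FPKM in Sle1b libraries, so the groups overlapped.

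Egr1, the EGR factor most often used as a sign of ERK activity, lies on chromosome 18 (34859823 to 34864984, plus strand). Egr1 measured 43.1, 13.4 and 9.24 FPKM in GC libraries labelled Ifnar1KO, against 7.43, 11.2 and 0 FPKM in non-GC libraries. In Sle1b it measured 48.1, 23.4 and 0.10 FPKM in GC libraries, against 5.94, 14.1 and 2.24 FPKM in non-GC libraries. The GC value was higher in 5 of 6 pairs, by more in batch 1 than in batch 2, and the exception was the Sle1b pair of batch 3. That pair rested on about 1 read in GC and 47 in non-GC cells, and the Ifnar1KO pair of batch 3 on about 250 and 0. The averaged difference was 1.32 (SE 0.57, 95% interval 0.09 to 2.55, adjusted p = 0.258), and 1.53 (SE 0.50, 95% interval 0.39 to 2.67, adjusted p = 0.126) in batches 1 and 2.

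Egr3, the close relative of Egr2, lies on chromosome 14 (70077399 to 70085447, plus strand) and was the most abundant of the 10 genes in non-GC libraries of batches 1 and 2. Egr3 measured 13.6, 10.2 and 1.02 FPKM in GC libraries labelled Ifnar1KO, against 25.6, 38.0 and 0.657 FPKM in non-GC libraries. Sle1b GC libraries had 14.0, 15.1 and 1.40 FPKM, against 18.8, 39.3 and 0.244 FPKM in Sle1b non-GC libraries. In batches 1 and 2 every GC value, at most 15.1 FPKM, lay below every non-GC value, at least 18.8 FPKM, and in batch 3 all 4 values were at or under 1.40 FPKM with the opposite order. A value below 0 in the 4 pairs of batches 1 and 2 was found in 18.1% of tested genes. The averaged difference was -0.53 (SE 0.42, adjusted p = 0.533) over 12 libraries and -1.10 (SE 0.35, 95% interval -1.90 to -0.30, adjusted p = 0.120) in batches 1 and 2, and neither passed. With 1 of the 12 libraries left out the difference ranged from -0.74 to -0.30.

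Within a library, Egr2 relative to Egr3 was compared as the log2 ratio of FPKM + 1, in which the scale of a library cancels but for the pseudocount of 1. The ratio was -0.76, -0.29 and 2.46 in GC libraries labelled Ifnar1KO, against -2.78, -3.98 and -0.73 in non-GC libraries. In Sle1b it was 0.56, -1.05 and 4.02 in GC libraries, against -3.80, -4.12 and -0.0023 in non-GC libraries. The GC ratio was higher in 6 of 6 pairs, by 2.02 to 4.36 on the log2 scale, and the smallest of these differences was that of the Ifnar1KO pair of batch 1. In batches 1 and 2 the order of the ratio follows from Egr2 being higher and Egr3 lower in GC cells in all 4 pairs. It adds nothing to those values. In batch 3 Egr3 was at 0.244 to 1.40 FPKM, near the pseudocount of 1, so the scale of a library does not cancel there. The ratio was formed after the values of both genes were seen and was not tested.

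**Figure D2:**
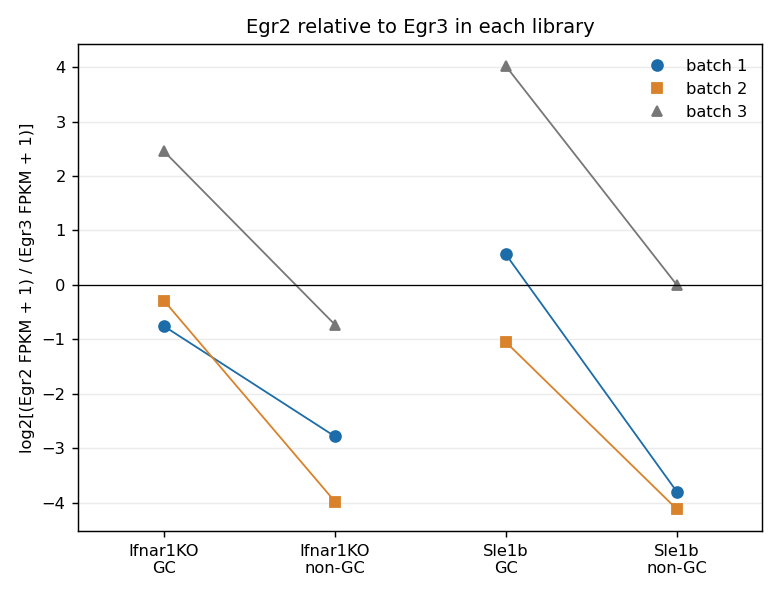
Log2 ratio of Egr2 to Egr3 (each as FPKM + 1) in the 12 libraries, with lines joining the GC and non-GC library of a genotype and batch. All 6 lines fall from GC to non-GC, by 2.02 to 4.36. The GC ratios of batch 3 (grey triangles) are the highest at 2.46 and 4.02, in libraries where Egr3 was at or under 1.40 FPKM.

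Among the AP-1 genes, Junb, which encodes a JUN protein with weaker activating function than JUN, lies on chromosome 8 (84976909 to 84978748, minus strand). Junb measured 20.5, 4.79 and 0 FPKM in GC libraries labelled Ifnar1KO, against 1.87, 2.23 and 0 FPKM in non-GC libraries. In Sle1b libraries Junb had 14.9, 1.47 and 0 FPKM in GC cells, against 1.25, 1.31 and 0 FPKM in non-GC cells. The GC value was higher in the 4 pairs of batches 1 and 2, a pattern found in 7.26% of tested genes, and the gap was wide in batch 1 only: the Sle1b pair of batch 2 rested on about 12 reads a library. The averaged difference was 1.11 (SE 0.51, 95% interval 0.01 to 2.21, adjusted p = 0.282), and 1.67 (SE 0.61, adjusted p = 0.160) in batches 1 and 2.

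Jun encodes the founding JUN protein and lies on chromosome 4 (gene 95049034 to 95052222, minus strand). Its deposited locus reached 95167318, a span of 118285 bases that also holds the antisense gene Junos, whose exons overlap those of Jun, and without a stated strand the reads of both cannot be told apart. Jun measured 19.2, 1.06 and 0.361 FPKM in GC libraries labelled Ifnar1KO, against 11.0, 6.93 and 1.72 FPKM in non-GC libraries. The Sle1b values of Jun were 18.9, 2.65 and 0.0952 FPKM in GC libraries, against 5.34, 7.45 and 0 FPKM in non-GC libraries. GC libraries were the higher in batch 1 and the lower in batch 2 in both genotypes, and the averaged difference of -0.27 (SE 0.50, 95% interval -1.35 to 0.81, adjusted p = 0.812) did not pass, nor did that of -0.19 (SE 0.64) in batches 1 and 2. The item that joins Junos and the gene n-R5s189 was also highest in the GC libraries of batch 1: it had 16.2, 0 and 0 FPKM in GC libraries labelled Ifnar1KO against 2.27, 0 and 0 FPKM in non-GC libraries, and 11.9, 0 and 3.34 FPKM in Sle1b GC libraries against 0.811, 0.327 and 0 FPKM in Sle1b non-GC libraries.

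Jund encodes the JUN protein that resting cells already hold, and lies on chromosome 8 (70697739 to 70700616, plus strand), where the antisense gene Gm11175 overlaps it. Jund measured 3.67, 0 and 0 FPKM in GC libraries labelled Ifnar1KO, against 1.50, 2.66 and 0.640 FPKM in non-GC libraries. It measured 6.08, 1.89 and 6.16 FPKM in Sle1b GC libraries, against 2.63, 4.15 and 1.71 FPKM in Sle1b non-GC libraries. GC and non-GC values overlapped, with an averaged difference of -0.02 (SE 0.48, 95% interval -1.06 to 1.02) over 12 libraries and -0.21 (SE 0.61) in batches 1 and 2, and no library held more than about 34 reads of Jund.

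Fos and Fosb encode the FOS partners of the JUN proteins and lie on chromosome 12 (85473890 to 85478563, plus strand) and chromosome 7 (19302721 to 19310045, minus strand). Fos measured 21.5, 5.15 and 0 FPKM in GC libraries labelled Ifnar1KO, against 7.22, 3.37 and 14.7 FPKM in non-GC libraries. In Sle1b it had 12.1, 4.45 and 1.99 FPKM in GC libraries, against 5.08, 10.8 and 0.380 FPKM in non-GC libraries. The order of Fos thus changed between batches, with both batch 1 pairs higher in GC cells. Fosb measured 44.1, 7.79 and 0 FPKM in GC libraries labelled Ifnar1KO, against 13.0, 9.13 and 0 FPKM in non-GC libraries. Fosb had 22.0, 10.6 and 1.12 FPKM in Sle1b GC libraries, against 7.12, 10.7 and 0 FPKM in Sle1b non-GC libraries. Fosb was higher in GC cells in batch 1, and its batch 2 differences were -0.21 in libraries labelled Ifnar1KO and -0.02 in Sle1b libraries. The averaged differences were -0.15 for Fos (SE 0.64, 95% interval -1.55 to 1.24) and 0.67 for Fosb (SE 0.43, 95% interval -0.27 to 1.62), and without batch 3 they were 0.49 (95% interval -0.71 to 1.68) and 0.74 (95% interval -0.38 to 1.86). With 1 library left out Fosb ranged from 0.33, without the Ifnar1KO GC library of batch 1, to 0.87.

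Nr4a1, also called Nur77, lies on chromosome 15 (101266846 to 101274792, plus strand). Nr4a1 measured 5.36, 0 and 0 FPKM in GC libraries labelled Ifnar1KO, against 1.41, 3.54 and 0 FPKM in non-GC libraries. Sle1b GC libraries had 2.63, 2.49 and 0 FPKM of Nr4a1, against 1.14, 2.84 and 1.05 FPKM in Sle1b non-GC libraries. It had the lowest median of the 10 genes in GC cells of batches 1 and 2, and the averaged difference was -0.20 (SE 0.50, 95% interval -1.27 to 0.87) over 12 libraries and -0.04 (SE 0.67) in batches 1 and 2.

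Myc lies on chromosome 15 (61985341 to 61990374, plus strand). Myc measured 26.8, 25.6 and 0 FPKM in GC libraries labelled Ifnar1KO, against 21.7, 12.2 and 7.48 FPKM in non-GC libraries. In Sle1b libraries Myc had 25.8, 22.2 and 0.484 FPKM in GC cells, against 9.97, 29.4 and 4.23 FPKM in non-GC cells. The 4 GC values of batches 1 and 2 lay within 22.2 to 26.8 FPKM, inside the wider non-GC range of 9.97 to 29.4 FPKM, while in batch 3 Myc was lower in GC cells of both genotypes. The averaged difference was -0.45 (SE 0.56, 95% interval -1.66 to 0.76) over 12 libraries and, with the opposite sign, 0.55 (SE 0.41, 95% interval -0.40 to 1.50) in batches 1 and 2. With 1 library left out it ranged from -0.81 to -0.03, and the values nearest 0 were those without the Ifnar1KO non-GC or GC library of batch 3.

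In batches 1 and 2 the order of the 10 genes by their median differed between the sorted cells. These medians join batches from separately normalized tables, and the order varied among libraries. In the Ifnar1KO GC library of batch 2 Egr1 (13.4 FPKM) lay below Myc (25.6 FPKM), and in the other GC libraries of these batches above it. Jun had 19.2 and 18.9 FPKM in GC libraries of batch 1 but 1.06 and 2.65 FPKM in those of batch 2. By the median of 4 libraries, GC cells held most Egr1 (33.2 FPKM), then Myc (25.7), Fosb (16.3), Egr3 (13.8), Jun (10.8), Junb (9.82), Fos (8.63), Egr2 (7.91), Jund (2.78) and Nr4a1 (2.56). In non-GC cells Egr3 came first (31.8 FPKM), then Myc (16.9), Fosb (9.94), Egr1 (9.32), Jun (7.19), Fos (6.15), Jund (2.64), Nr4a1 (2.12), Junb (1.59) and Egr2 (1.40). The ranges of neighbouring genes overlapped at every step but 1, between Egr2 (6.78 to 21.0 FPKM) and Jund (0 to 6.08 FPKM) in GC cells. Egr2 was the last in non-GC cells, with 0.424 to 2.88 FPKM.

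**Figure D3:**
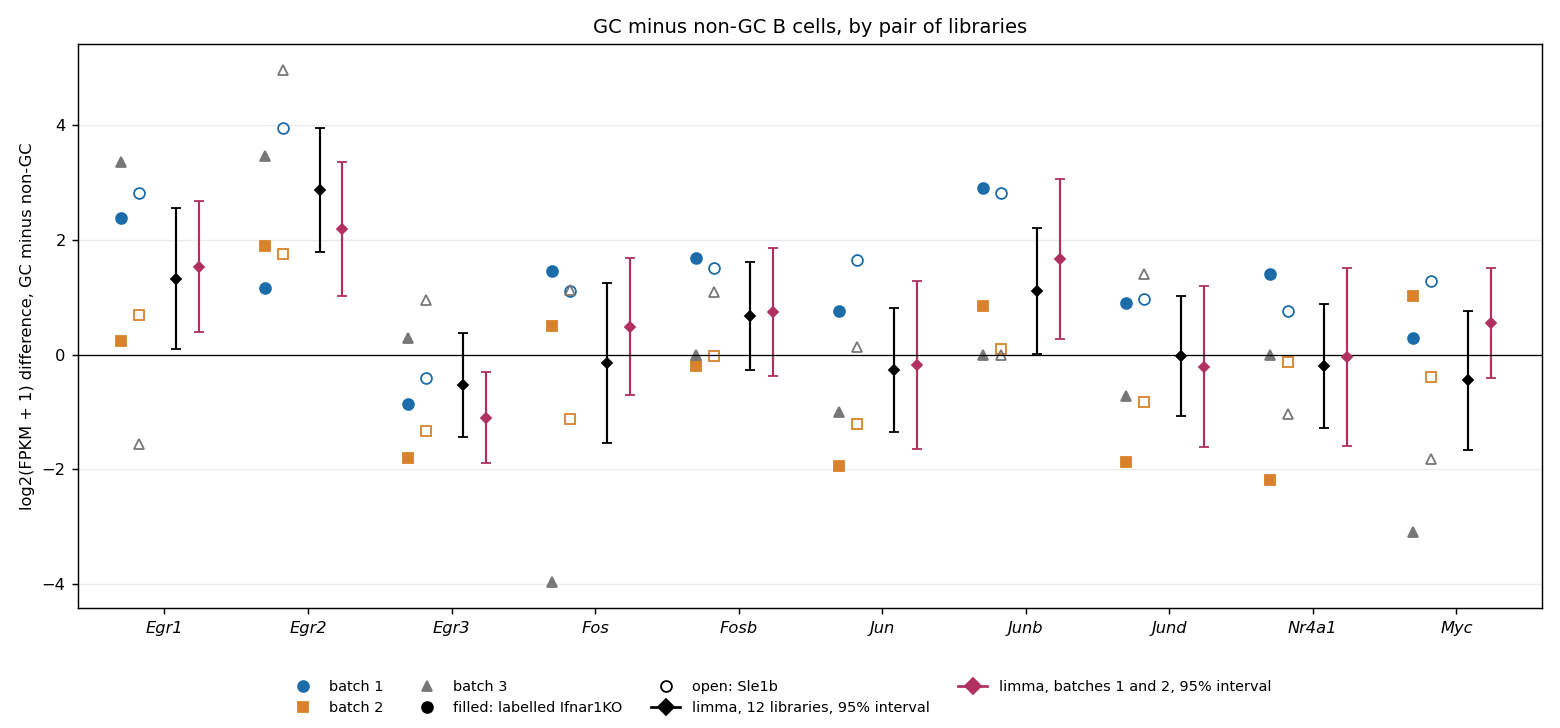
GC minus non-GC difference of log2(FPKM + 1) for each gene: markers are single pairs of libraries (filled, labelled Ifnar1KO; open, Sle1b; shape and colour by batch), and diamonds with bars are limma estimates with 95% intervals over 12 libraries (black) and over batches 1 and 2 (red). The interval of Egr2 lies furthest above 0 (1.78 to 3.94), and the batch 1 markers (blue circles) lie above 0 for every gene but Egr3.

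For the 10 genes as a set, the pairs of libraries differed by batch. In batch 1, 9 of 10 genes were higher in GC cells in each genotype, with a median difference of 1.28 in libraries labelled Ifnar1KO and 1.40 in Sle1b libraries, against medians over all tested genes of -0.45 and 0. Over all tested genes, 29.4% and 41.7% were higher in GC cells in these pairs. In batch 2, 5 of 10 were higher in libraries labelled Ifnar1KO (median 0.01) and 3 of 10 in Sle1b libraries (median -0.26), beside 37.5% and 43.9% of all genes. In batch 3, 3 were higher, 4 lower and 3 equal in libraries labelled Ifnar1KO (median 0), and 6 were higher, 3 lower and 1 equal in Sle1b libraries (median 0.54), beside 23.1% and 33.7% of all genes higher. Markers of other cells moved with the Sle1b pair of batch 1: the 8 myeloid markers summed to 165 FPKM in its GC library against 21.0 FPKM in its non-GC library, and the 5 erythroid markers to 71.7 against 7.54 FPKM. In the Ifnar1KO pair of batch 1 the myeloid sum was 11.2 FPKM in GC against 26.0 FPKM in non-GC cells, and the erythroid sum 22.5 against 17.1 FPKM. Over the other libraries the myeloid sum ranged from 0.0681 to 22.2 FPKM, and the part of these cells in the result was not tested. Of the 8 myeloid markers, those at 0 in all 3 libraries of a group were Csf1r, C1qa, Cd14 and S100a8 in Ifnar1KO GC. They were C1qa and Cd14 in Ifnar1KO non-GC, C1qa in Sle1b GC and C1qa and Cd14 in Sle1b non-GC cells. Loci without a gene name also differed: in batch 1 they took an estimated 20.7% (Ifnar1KO) and 22.4% (Sle1b) of reads in GC libraries. The non-GC libraries of batch 1 had 6.55% and 6.59%. In batch 2 the shares were 22.5% (GC) against 11.0% (non-GC) in the Ifnar1KO pair and 10.6% in both Sle1b libraries. The part of this in the result was not tested.

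Genes that share the upstream pathway or act with the 10 genes also held no gene that passed over 12 libraries. Of 10 upstream factors (SRF, ternary complex factors and ERK pathway kinases) 0 passed and 2 were lower at an unadjusted p under 0.05, as were 13.0% of all genes, with a median difference of -0.35 against -0.25 over all genes. The largest by the moderated statistic were the ERK kinase Map2k1 (-1.14, SE 0.47, adjusted p = 0.244) and the ternary complex factor Elk4 (-0.97, SE 0.43, adjusted p = 0.267), followed by Mapk3 (-0.54, SE 0.46) and Elk3 (-0.34, SE 0.41). Of 6 tested AP-1 and CREB-type partners out of 11, 0 passed, with a median of 0.35, led by Creb1 (-1.01, SE 0.44, adjusted p = 0.261), Mafk (0.59, SE 0.40), Mafg (0.74, SE 0.55) and Batf (-0.45, SE 0.40). Of 19 tested other early response genes out of 22, 0 passed, with a median of -0.12. The mRNA decay factors Zfp36 (-1.49, SE 0.43, adjusted p = 0.133) and Zfp36l1 (-1.22, SE 0.37, adjusted p = 0.142) had values below 0, and Gadd45b (1.31, SE 0.49, adjusted p = 0.210) and Rgs1, a regulator of G protein signalling (1.08, SE 0.50, adjusted p = 0.286), had values above 0.

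Around Myc, 0 of 9 tested network partners out of 12 passed, with a median of -0.10. Mxd3, a Max-binding antagonist of Myc, came nearest (1.39, SE 0.44, adjusted p = 0.152, and 1.71, adjusted p = 0.0810, in batches 1 and 2). Its level was 0, 0 and 0 FPKM in GC libraries labelled Ifnar1KO against 0.729, 0.297 and 0 FPKM in non-GC libraries, and 22.7, 11.2 and 1.83 FPKM in Sle1b GC libraries against 0, 0.115 and 0 FPKM in Sle1b non-GC libraries. The GC libraries of Sle1b were thus high and those labelled Ifnar1KO were listed at 0. The interaction was -3.56 (SE 0.88, adjusted p = 0.992). Of the other partners, Mxd1 differed by -0.57 (SE 0.36), Mga by -0.59 (SE 0.53) and Mnt by 0.40 (SE 0.57). Of 21 MYC-associated growth genes 0 passed, with a median of -0.40, and Hspe1 (-1.60, SE 0.62), Npm1 (-1.72, SE 0.72), Eif4a1 (-1.60, SE 0.86) and Ccnd2 (-0.60, SE 0.38) led the list. Without batch 3 Npm1 was at -0.24 (SE 0.30) and Eif4a1 at 0.24 (SE 0.28), so that their values rested on batch 3.

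Of 14 B cell activation and light zone genes, 0 passed over 12 libraries, with a median of -0.49, and 1 passed in batches 1 and 2, where 2.86% of all genes did. That gene was Cd86, a costimulatory ligand of light zone B cells (1.61, SE 0.31, adjusted p = 0.0393 in batches 1 and 2, and 1.38, SE 0.41, adjusted p = 0.134 over 12 libraries). Cd86 had 50.1, 34.8 and 7.73 FPKM in GC libraries labelled Ifnar1KO against 13.6, 15.7 and 13.9 FPKM in non-GC libraries, and 49.0, 67.2 and 43.4 FPKM in Sle1b GC libraries against 13.7, 19.0 and 6.30 FPKM in Sle1b non-GC libraries. Over 12 libraries Bcl2a1b (-1.59, SE 0.44, adjusted p = 0.126) came ahead of Cd86 by the moderated statistic and Tnfaip3 (1.11, SE 0.40) and Irf4 (-0.96, SE 0.36) after it, and none of these 4 passed. Heat shock and stress genes gave 0 of 7 tested genes past the threshold out of 10 listed, with a median of -0.36, and in batch 1 their median was -0.26 in libraries labelled Ifnar1KO and -0.25 in Sle1b libraries. In batches 1 and 2 alone, the list medians were -0.19 for the upstream factors, 0.14 for the AP-1 and CREB-type partners (7 tested), 0.30 for the other early response genes (20 tested), -0.04 for the Myc network partners (10 tested), -0.10 for the growth genes, -0.64 for the B cell activation genes and -0.12 for the heat shock genes, beside -0.29 over all genes. As a check of the sort, 1 of 8 GC markers passed higher (Mki67, 4.56, SE 0.62, adjusted p = 0.0314) and 1 of 6 resting B cell markers passed lower (Cd55, -2.60, SE 0.36, adjusted p = 0.0314), and in batches 1 and 2 these counts were 7 of 8 and 5 of 6. B cell markers were below 0 for 7 of 7 genes over 12 libraries, 5 of them at an unadjusted p under 0.05, with a median of -1.33 against -0.25 over all genes, and the median was -0.32 in batches 1 and 2, against -0.29 over all genes. Of the tested markers, 0 of 7 for B cells, 0 of 4 for T cells, 0 of 3 for NK cells, 0 of 5 for myeloid, 0 of 3 for plasma and 0 of 4 for erythroid cells passed in either fit. Of 3 plasmacytoid dendritic cell markers, Siglech passed lower in batches 1 and 2 (-2.28, SE 0.43, adjusted p = 0.0384) and not over 12 libraries (-1.97, SE 0.56, adjusted p = 0.129).

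**Figure D4:**
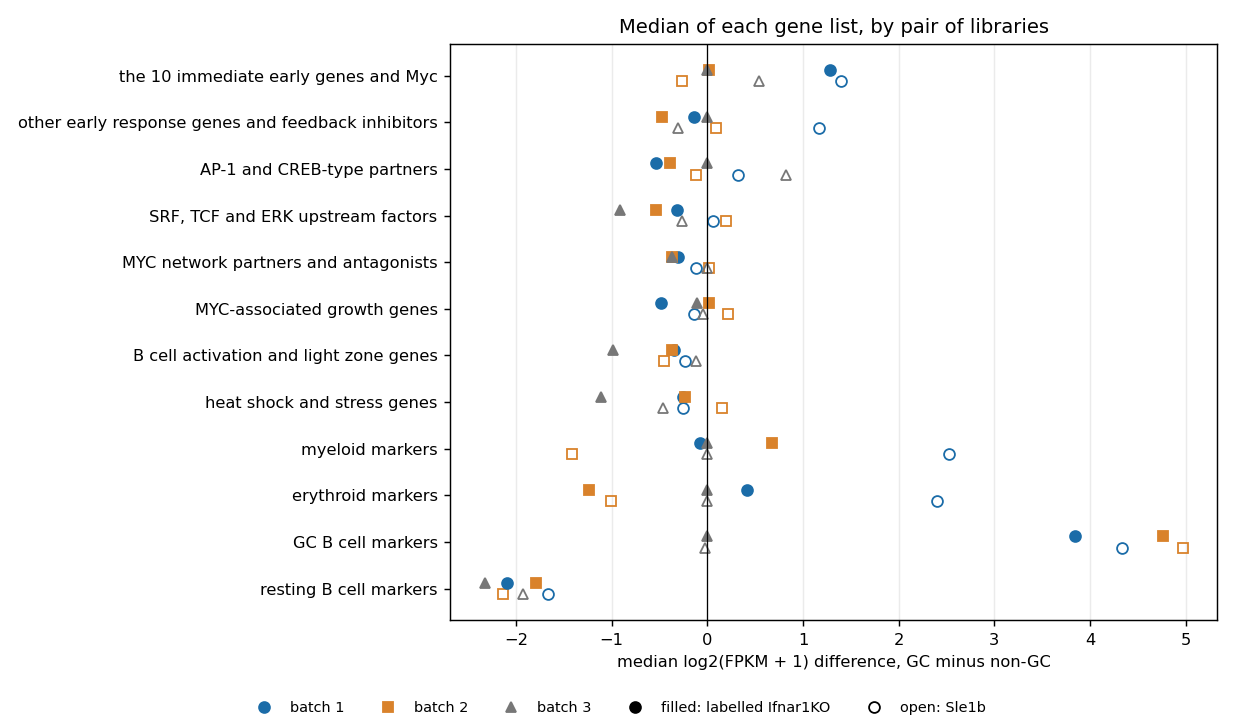
Median GC minus non-GC difference of log2(FPKM + 1) of each gene list in each pair of libraries (filled, labelled Ifnar1KO; open, Sle1b; shape and colour by batch). Both batch 1 markers of the 10 genes lie at 1.28 and 1.40, to the right of their batch 2 markers, while heat shock genes lie near 0 in batch 1 and GC markers near 0 in batch 3.

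Genotypes were compared next, with the caution that Ifnar1 does not check the labels. Jund was lower in the library labelled Ifnar1KO than in its Sle1b counterpart in 6 of 6 pairs of the same cells and batch, which held for 1.05% of tested genes (153 genes). The values are those given above: in GC cells 3.67, 0 and 0 FPKM in libraries labelled Ifnar1KO against 6.08, 1.89 and 6.16 FPKM in Sle1b libraries, and in non-GC cells 1.50, 2.66 and 0.640 FPKM against 2.63, 4.15 and 1.71 FPKM. The averaged difference was -1.12 (SE 0.48, 95% interval -2.16 to -0.08, unadjusted p = 0.0367 in limma, adjusted p = 0.993) and did not pass. It was -1.66 (SE 0.68, adjusted p = 0.741) in GC cells and -0.58 (SE 0.68) in non-GC cells, and without batch 3 the averaged difference was -0.79 (SE 0.61). The unadjusted p of the averaged difference stayed under 0.05 without the batch 1 library of Sle1b non-GC or Ifnar1KO GC cells or the batch 2 library of Sle1b GC or Ifnar1KO non-GC cells, and rose above it without any of the other 8. Across all genes the median was -0.12 and moved to 0.10 with an equal median, where Jund was at -0.90.

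Of the 10 genes, 0 passed between genotypes, averaged over cell types, in GC cells or in non-GC cells, as did 0.00% of all genes, and at an unadjusted p under 0.05 the averaged comparison held 1 of 10 (Jund), beside 3.95% of all genes. Junb was higher in libraries labelled Ifnar1KO in the 4 pairs of batches 1 and 2 and listed at 0 in batch 3. The share of all genes with this pattern was not computed. In non-GC cells the pairs rested on about 25 against 14 reads (batch 1) and 15 against 12 (batch 2). In GC cells they rested on about 150 against 83 reads (batch 1) and 19 against 12 (batch 2). The averaged difference of Junb was 0.42 (SE 0.51, 95% interval -0.68 to 1.52). Egr3 (-0.0028, SE 0.42), Fosb (0.01, SE 0.43), Myc (0.04, SE 0.56) and Egr1 (0.10, SE 0.57) had averaged differences close to 0, with 95% intervals that reached from -1.17 to 1.24 for Myc and from -0.91 to 0.90 for Egr3. The interaction of genotype and cell type passed for 0 of the 10 genes, as for 0.00% of all genes, and at an unadjusted p under 0.05 for 0 of 10, beside 3.74% of all genes (for 1, Egr2, without the Sle1b GC library of batch 2). It ranged from -1.38 for Egr2 to 1.34 for Egr1 (SE 1.14).

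**Figure D5:**
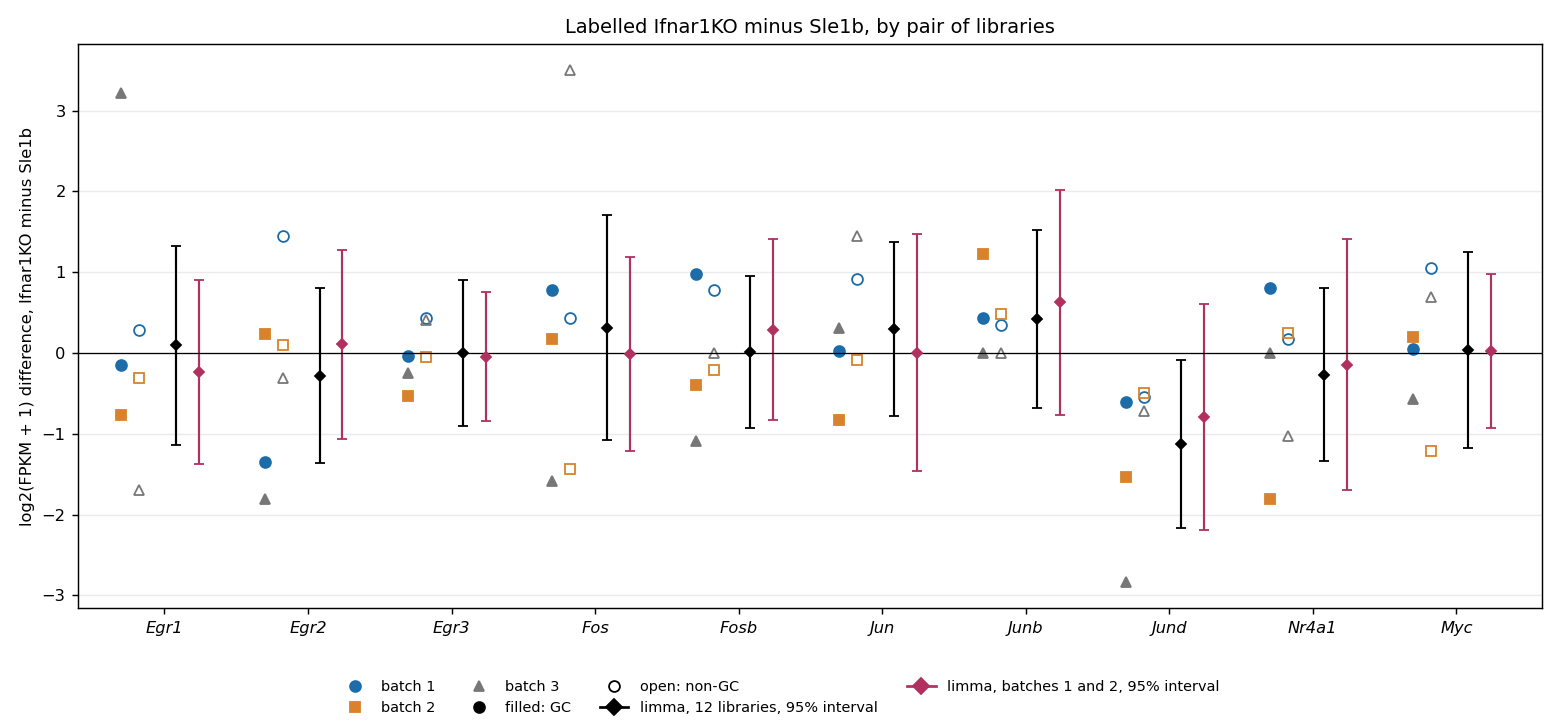
Labelled Ifnar1KO minus Sle1b difference of log2(FPKM + 1) for each gene: markers are single pairs of libraries (filled, GC; open, non-GC; shape and colour by batch), and diamonds with bars are limma estimates with 95% intervals over 12 libraries (black) and over batches 1 and 2 (red). All 6 markers of Jund lie below 0, and the black interval of Jund, -2.16 to -0.08, is the one that stays below 0.

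The authors' deposited tables tested 1 library against another, so they have no replicates. Of 170 rows of the 10 genes in the authors' deposited tables, 124 were tested and 3 were marked significant, all in batch 3. In the authors' deposited table of the Ifnar1KO pair of batch 3, Egr1 had 10.4 FPKM in GC cells and 0 in non-GC cells (q = 0.0289). In the authors' deposited table of the batch 3 non-GC cells, Egr1 had 0 FPKM in the library labelled Ifnar1KO and 1.96 FPKM in the Sle1b library (q = 0.0407). Jund, in the authors' deposited table of the batch 3 GC cells, had 0 FPKM in the library labelled Ifnar1KO and 7.06 FPKM in the Sle1b library (q = 0.0436). Each of these rests on a library listed at 0.

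The tested genes whose batch-centred log2(FPKM + 1) most resembled each of the 10 over 12 libraries had Pearson r of 0.91 to 0.97. These values are a description only, since libraries of a batch share their scaling and depth differs among them. Each r is also the highest among all other tested genes over only 12 libraries, so a high value can follow from that choice alone. The nearest were the chromatin protein gene Hmgb2 for Egr2 (0.97), the histone gene Hist1h1b for Junb (0.97), the adaptor Grb2 for Egr1 (0.96) and the item joining Junos and n-R5s189 for Fosb (0.95). Acadm was nearest to Egr3 (0.94), Oxsm to Jund (0.94), Rbm8a to Fos (0.93), Thg1l to Jun (0.92), 1810046K07Rik to Myc (0.92) and Wdpcp to Nr4a1 (0.91).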

How the data were processed

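RNA sequencing of 12 libraries in 3 batches was analysed from 17 deposited tables. The submitters' processing notes name the build GRCm38 and the tools Cuffdiff, Cufflinks 2.2.1, TopHat2 2.0.9, Bowtie2 2.1.0 and CASAVA. Each table gives FPKM for 2 libraries, normalized by the authors for that pair, and the authors' p-value and q-value. The batch is the one the tables name, and it equals the replicate number, which follows accession order. Values of a library in different tables differed by 1 constant factor, so 1 factor per library was fitted within each batch. The largest residual, in batch 1, was 0.17 on the log2 scale. The Sle1b GC and non-GC libraries of batch 1 share no deposited table. Differences in that pair therefore rest on factors fitted through the libraries labelled Ifnar1KO. Levels set side by side across batches come from separately normalized tables. In loci of 800 to 2500 bases, 100% of low values were whole multiples of 1 read within 0.1 read, and reads were estimated from these steps to describe depth. No count test was run.

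Items with at least 1 FPKM in at least 3 libraries (14607) were tested with limma 3.58.1 in R 4.3.3 on log2(FPKM + 1), a scale that understates changes of low genes, with 4 groups and batch as a block, 7 comparisons, two-sided, Benjamini-Hochberg adjustment and a threshold of 0.05. The fit was tested on simulated data with the same spread in every gene and library. That run does not show how the fit performs at the uneven spread of these libraries. A value of 0 can be a failed estimate. The 10 genes and all lists were chosen with earlier results of these data known. From each list, up to 4 genes with the largest moderated statistic, plus any that passed, are named. Alternatives were no batch block, pseudocounts of 0.1 and 5 FPKM, no filter, an equal median, library weights, each library or batch left out, and batches 1 and 2 with the filter redone (at least 1 FPKM in 2 of 8 libraries).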

Additional observations from a re-analysis of the deposited data

How the results depend on the processing

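The count of genes called for GC against non-GC cells averaged over genotypes, 4 in all, was the result that moved most: 0 without the replicate block (batch), 1 with a pseudocount of 0.1 FPKM, 9 with 5 FPKM, 1 with no filter, 21 with an equal median, 404 with library weights, 0 without batch 1, 0 without batch 2, 1 without batch 3 and 393 in batches 1 and 2 with the filter redone. In GC against non-GC cells labelled Ifnar1KO it was 1 in all, 0 without the block, 0 without batch 1, batch 2 or batch 3, and 8 in batches 1 and 2 with the filter redone, and in Sle1b it was 0 in all, 3 with library weights and 8 in batches 1 and 2. For Ifnar1KO against Sle1b in non-GC cells it was 0 in all and 8 with library weights. Of the 10 genes, 0 were called in any comparison, except Egr2 averaged over genotypes with an equal median (3.16, a count of 1) and with library weights (2.53, a count of 1). Leaving out each library in turn gave 1 to 10 genes for the averaged GC comparison, 0 to 2 in Ifnar1KO, 0 to 1 in Sle1b, 0 to 1 for Ifnar1KO against Sle1b in GC cells, 0 to 1 for the interaction, 0 to 0 elsewhere and 0 to 0 of the 10 genes.

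Egr2 stayed between 2.50 and 3.24 when 1 library was left out. Its difference was 2.86 without the replicate block as with it, but its SE was 0.87 and its adjusted p 0.970. Signs that turned were those of small differences: Fos (0.15 with an equal median, 0.12 with library weights, 0.49 without batch 3), Jun (0.028 with an equal median, 0.39 without batch 2), Jund (0.082 with a pseudocount of 5 FPKM, 0.27 with an equal median, 0.64 without batch 2), Nr4a1 (0.10 with an equal median, 0.28 without batch 2) and Myc (0.039 with library weights, 0.55 without batch 3). With 1 library left out, Fos ranged from -0.56 to 0.51, Jun from -0.55 to 0.090, Jund from -0.36 to 0.22 and Nr4a1 from -0.60 to 0.21. The cause was not tested. Jund between genotypes kept its sign under all 22 alternatives, from -1.46 to -0.86 with 1 library left out. Deviations from the group means separated batch 3 (lowest correlation within it 0.52, highest with another batch -0.27) but not batches 1 and 2, whose lowest correlations within the batch were 0.29 and 0.40 while the highest with another batch was 0.46. Jund had at most about 34 reads and Nr4a1 at most about 57 in any library, so that their differences are poorly bounded at this depth.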
